A study of Mus musculus with 41 samples.

Results

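The genes described here are 8 transcription factors known for forebrain identity, Emx1, Emx2, Lhx2, Six3, Otx1, Otx2, Nr2e1 and Fezf2, chosen by symbol and each matched by 1 of the 34591 entries of the deposited expression table. They were followed in 41 RNA-seq libraries from a mouse model of diffuse midline glioma, a childhood brain tumor in which histone H3.3 often has methionine in place of lysine 27 (K27M). The 29 brainstem tumors carried Nestin-creERT2, a PDGFRαV544ins transgene behind a loxP-flanked stop (LSL), floxed Trp53 alleles, and an H3f3aLSL knock-in allele for either tagged K27M histone (20 tumors, 11 labelled female and 9 male) or tagged wild-type histone (WT-Tag, 9 tumors, 6 female and 3 male). The 12 neurospheres, embryonic neural precursors grown in suspension, were from e15.5 forebrain or hindbrain and carried Nestin-cre with the K27M-Tag or the WT-Tag allele, 3 libraries of each genotype and region, without the PDGFRα and Trp53 alleles that all tumors shared. In both models the Nestin promoter, which is active in neural progenitors, drives Cre. The 3 libraries of a neurosphere group are named by their experiment id, from 1 to 3. In experiment 3 the WT-Tag cultures were labelled male and the K27M cultures female, and all other cultures were labelled female.

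As background, the anterior neural plate becomes forebrain under the combined action of homeodomain and nuclear receptor factors. Otx1 and Otx2 specify forebrain and midbrain and hold the midbrain-hindbrain boundary against the hindbrain. Six3 keeps the most anterior part free of posteriorizing Wnt signals. Emx1, Emx2 and Lhx2 pattern the dorsal telencephalon, where Lhx2 separates cortex from the cortical hem. Nr2e1 (Tlx) maintains neural stem cells, and Fezf2 directs early forebrain patterning and later the fate of deep-layer cortical neurons. Otx2 has further roles outside the forebrain, among them in choroid plexus and cerebellar granule cell precursors.

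RefSeq promoters, taken as 250 bases before to 50 after a transcription start, were found for 7 of the 8 factors, all except Otx1. Those of Emx2 and Lhx2 are printed because these 2 genes moved together between regions and between tumor genotypes, 1 of the 2 Lhx2 promoters being shown, and 1 of the 4 Otx2 promoters is printed because Otx2 took the opposite course between regions. Capitals mark CpG dinucleotides. Coordinates are of GRCm38.p6, not of the build of the expression table. The Emx2 window is chr19:59458440-59458739 on the plus strand, the Lhx2 window chr2:38339031-38339330 on the plus strand, and the Otx2 window chr14:48665060-48665359 on the minus strand.
Emx2: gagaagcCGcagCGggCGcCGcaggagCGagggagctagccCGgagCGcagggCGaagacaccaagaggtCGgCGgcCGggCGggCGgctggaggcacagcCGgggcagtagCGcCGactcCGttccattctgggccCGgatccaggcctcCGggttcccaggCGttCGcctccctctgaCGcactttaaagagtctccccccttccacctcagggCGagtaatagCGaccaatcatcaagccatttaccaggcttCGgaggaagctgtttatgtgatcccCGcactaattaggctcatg
Lhx2: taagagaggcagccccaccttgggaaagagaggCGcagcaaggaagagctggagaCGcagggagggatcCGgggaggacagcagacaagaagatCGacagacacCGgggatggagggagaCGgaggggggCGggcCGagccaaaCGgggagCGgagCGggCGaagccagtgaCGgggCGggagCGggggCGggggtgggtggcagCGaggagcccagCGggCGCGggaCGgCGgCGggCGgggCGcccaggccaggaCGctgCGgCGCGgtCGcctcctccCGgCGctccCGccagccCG
Otx2: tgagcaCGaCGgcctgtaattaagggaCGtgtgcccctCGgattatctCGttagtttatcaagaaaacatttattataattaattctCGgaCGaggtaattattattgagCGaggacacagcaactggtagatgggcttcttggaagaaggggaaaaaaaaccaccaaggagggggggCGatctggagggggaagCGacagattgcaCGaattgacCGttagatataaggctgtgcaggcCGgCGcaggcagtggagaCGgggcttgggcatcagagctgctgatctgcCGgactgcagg
The Emx2 window held 26 CpG and the Lhx2 window 34, against a median of 7 over 32851 promoters of this length, and 83.1% and 92.3% of promoters held fewer. The printed Otx2 window held 16 CpG, and the other 3 held 6, 8 and 11. Among members not printed, the Emx1 window held 37 CpG, more than any of these, Fezf2 20, Nr2e1 19 and Six3 14. Of the motifs searched on both strands, TAATCC, the core known from Otx-type homeodomains, was in the printed Otx2 window but not in the other 3. It was in 7.06% of all promoters. TAATTA, a general homeodomain core, was in the Emx2 window, in the printed and 1 other Otx2 window, and in 5.29% of all. GGGCGG, the GC box, was in the Emx1, Emx2 and Fezf2 windows, in the printed Lhx2 window but not the other, which held 29 CpG, and in 35.7% of all.

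Expression is given in FPKM, fragments per kilobase of exon, scaled by how many fragments of the library mapped, so levels can be compared between genes. Relative depth, read from the smallest steps of the deposited values and set to a median of 1, ran from 0.43 to 1.79 in tumors and from 0.268 to 1.17 in neurospheres, lowest in the experiment 1 forebrain cultures. Each tumor has its own number and each culture of a group its own letter, but the labels do not say that these came from separate animals. The p-values therefore measure the spread between these libraries. One fragment was then worth 0.00494 FPKM for Otx1 to 0.0122 FPKM for Emx1 at a depth of 1. The fragment numbers below are estimates from these steps and were not obtained for Six3, whose row carries no Ensembl identifier. H3f3a, the knock-in gene, lay between 89.04 and 114.9 FPKM in every neurosphere and between 34.0 and 111.0 in every tumor, and these totals do not separate the 2 alleles. The WT-Tag tumors 8 and 9 had sex-linked transcripts that go against their labelled sex. Markers of the labelled region were mixed. Irx2, an Iroquois factor of midbrain and hindbrain, lay between 6.24 and 11.5 FPKM in hindbrain cultures and at most at 0.121 in forebrain cultures. Hoxa5, a marker of the caudal hindbrain, reached 2.183 FPKM in WT-Tag but only 0.107 in K27M hindbrain cultures, and of 22 hindbrain and midbrain identity genes 6 had a mean below 0.1 FPKM in the former and 14 in the latter. In the tumors Irx2 was at least 1.277 FPKM.

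Only part of the 8 factors followed forebrain origin. Emx2, Lhx2 and Six3 were higher in each of the 6 forebrain cultures than in each of the 6 hindbrain cultures. Otx2 ran the other way and was highest in hindbrain cultures, so for Otx2 the name forebrain factor does not describe these data. Otx1 and Nr2e1 were present in both regions. Emx1 and Fezf2 were at the detection limit.

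Lhx2, a LIM-homeodomain factor of the cortical primordium, was the most abundant of the members that were higher in forebrain cultures. It was measured at 7.347, 6.174 and 6.787 FPKM in the WT-Tag forebrain cultures of experiments 1, 2 and 3, and at 9.92, 9.882 and 7.515 in the K27M forebrain cultures. The hindbrain cultures gave 0.107, 0.041 and 0.104 FPKM with WT-Tag and 0.016, 0.02 and 0.03 with K27M, which are 16, 7 and 20 and then 2, 3 and 4 estimated fragments. All forebrain values stand far above all hindbrain values. Mean Lhx2 was 80.6 times higher in forebrain than in hindbrain cultures with WT-Tag and 414 times higher with K27M, the second ratio resting on few fragments. The log2 change on the log2(FPKM + 1) scale, hindbrain against forebrain, was -2.84 ± 0.11 (SE, limma adjusted p = 2.45e-07) with WT-Tag and -3.30 ± 0.11 (adjusted p = 4.7e-08) with K27M.

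Emx2, a homeodomain factor of the caudal and medial cortex, followed the same division. The WT-Tag forebrain cultures gave 3.75, 3.455 and 3.375 FPKM and the K27M forebrain cultures 4.99, 4.621 and 4.336. In WT-Tag hindbrain cultures it was 0.044, 0.077 and 0.119 FPKM, or 4, 8 and 14 estimated fragments. In K27M hindbrain cultures it was 0, 0.011 and 0.025 FPKM, or 0, 1 and 2 fragments, where a count of 0 in the experiment 1 library allows up to 0.0391 FPKM. Here too no forebrain value meets a hindbrain value. The log2 change between regions was -2.07 ± 0.098 (adjusted p = 6.94e-07) with WT-Tag and -2.48 ± 0.098 (adjusted p = 1.25e-07) with K27M.

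Otx2, which sets the anterior side of the midbrain-hindbrain boundary, was lower in forebrain cultures. With WT-Tag it was 1.013, 4.308 and 4.192 FPKM in forebrain and 16.411, 8.036 and 7.68 in hindbrain cultures of experiments 1, 2 and 3. With K27M the forebrain cultures gave 5.826, 6.424 and 4.606 FPKM and the hindbrain cultures 22.527, 21.74 and 28.457. The experiment 1 pair of WT-Tag cultures held both the lowest forebrain and the highest WT-Tag hindbrain value, and the regions did not overlap within either genotype. The log2 change, hindbrain against forebrain, was 1.93 ± 0.36 with K27M (adjusted p = 0.00731) and passed the test there, although the adjusted p was 0.137 without experiment 3. With WT-Tag it was 1.54 ± 0.36 (adjusted p = 0.059), which did not pass except after quantile normalization (0.0472). The summed FPKM of 10 choroid plexus markers, of which 1 passed the filter, was 1.61 in the WT-Tag hindbrain library with the most Otx2, 18.82 to 22.02 in the other two, 3.06 to 9.26 with K27M, and 14.8 to 80.8 in forebrain cultures. The sum of 10 cerebellar granule neuron markers overlapped between WT-Tag (28.9 to 38.4) and K27M hindbrain cultures (20.1 to 38.5) and was 18.4 to 26.5 in forebrain cultures, and the part of either cell type in the Otx2 levels was not tested.

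Otx1, the paralog of Otx2 with a role in cortical and sensory development, showed no regional difference past the test. Forebrain cultures gave 1.425, 0.95 and 0.947 FPKM with WT-Tag and 1.327, 1.589 and 1.1 with K27M. Hindbrain cultures gave 1.153, 0.172 and 0.113 FPKM with WT-Tag and 1.858, 1.593 and 1.861 with K27M. The experiment 1 WT-Tag hindbrain library stands apart from the other two and lies inside the forebrain range. Nr2e1, the orphan nuclear receptor of neural stem cells, had the same outlying library. Its hindbrain values were 2.357, 0.72 and 0.264 FPKM with WT-Tag and 2.431, 2.22 and 3.085 with K27M, against 2.905, 3.366 and 3.838 with WT-Tag and 3.151, 3.044 and 3.34 with K27M in forebrain. Between regions the log2 change was -0.57 ± 0.22 for Otx1 and -1.17 ± 0.27 for Nr2e1 with WT-Tag (adjusted p = 0.343 and 0.0609), and 0.25 ± 0.22 and -0.23 ± 0.27 with K27M (0.58 and 0.689). Without the experiment 1 WT-Tag hindbrain library, the WT-Tag changes were -0.88 for Otx1 and -1.56 for Nr2e1 (adjusted p = 0.00881 and 0.000527). That library lay nearest to the forebrain values, so leaving it out favors a call. With each of the 6 libraries left out in turn, the adjusted p reached 0.788 for Otx1 and 0.236 for Nr2e1.

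Six3, which represses Wnt genes in the anterior forebrain and eye field, was low everywhere but higher in every forebrain than in every hindbrain culture. It was 0.074, 0.173 and 0.248 FPKM in WT-Tag and 0.251, 0.119 and 0.223 in K27M forebrain cultures, and between 0.009 and 0.04 in the 6 hindbrain cultures. Six3os1, the gene annotated on the opposite strand beside it, lay between 0.666 and 2.324 FPKM in forebrain cultures and at most at 0.216 in hindbrain cultures. The use of strand in counting is not stated, so reads of such a pair may not be told apart. Fezf2, a zinc finger factor, lay between 0.021 and 0.131 FPKM in forebrain and between 0 and 0.02 in hindbrain cultures, with 9 and 17 estimated fragments over the WT-Tag and K27M forebrain libraries and 2 and 0 over the hindbrain libraries. Emx1, a marker of cortical progenitors, was at most 0.064 FPKM in forebrain cultures, with 8 and 5 estimated fragments over the WT-Tag and K27M libraries, and was 0 in 5 of 6 hindbrain cultures, where a count of 0 allows up to 0.0482 FPKM. These 3 genes did not reach 1 FPKM in 3 libraries and were not tested in the main fits. In fits with no filter or a filter of 0.1 FPKM, Six3 did not pass between regions. Its limma adjusted p was 0.215 to 0.232 with WT-Tag and 0.069 to 0.0818 with K27M. With no filter, that adjusted p was 0.743 and 0.684 for Emx1 and 0.796 and 0.0528 for Fezf2.

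**Figure D1:**
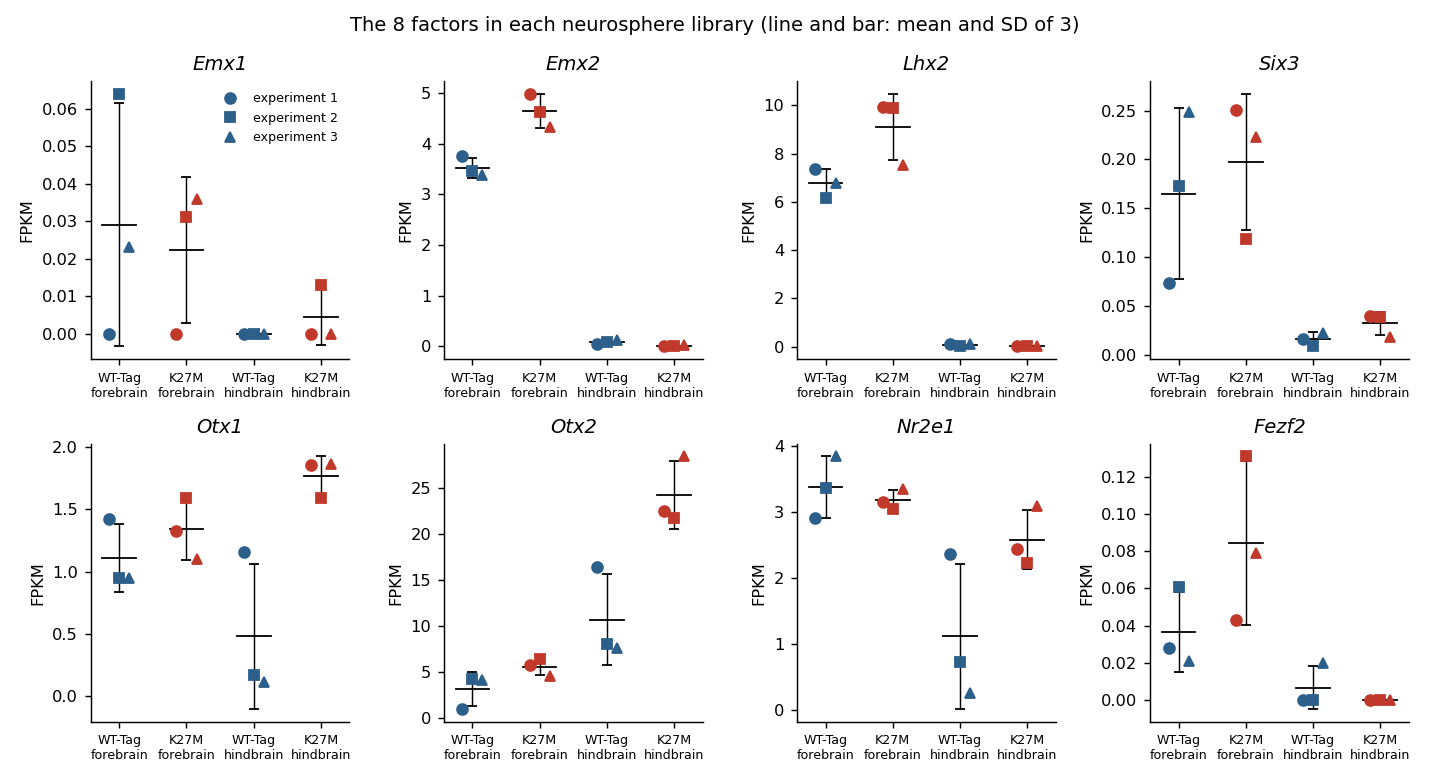
FPKM of each of the 8 factors in the 12 neurosphere libraries, by genotype and region; points are libraries (shape gives the experiment), the line and bar are the mean and SD of 3. Emx2 and Lhx2 are near 0 in all hindbrain cultures, Otx2 is highest in K27M hindbrain cultures (21.74 to 28.457), and the WT-Tag hindbrain library of experiment 1 is apart for Otx1, Otx2 and Nr2e1.

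In the test between regions, 2 of the 5 tested factors fell and none rose with WT-Tag, where 1.82% of 13190 genes were called, and 2 fell and 1 rose with K27M, where 7.92% were called. The 3 values of a group did not overlap between regions for 4 of 5 with WT-Tag (14.7% of all genes) and 4 of 5 with K27M (31.9% of all genes). Emx2 and Lhx2 entered the test only through the forebrain cultures in which they were high, so these counts only describe the members, and the same holds for the lists below. The median log2 change of the 5 was -1.17 with WT-Tag and -0.23 with K27M, beside -0.04 and -0.01 over all genes tested.

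Other regional genes moved in the same comparisons. Of 32 other forebrain patterning factors 10 were tested, of which 4 were lower and 1 higher in WT-Tag hindbrain cultures, and 5 lower and 3 higher in K27M hindbrain cultures. Dmrta2, which acts with Emx2 in the medial cortex, was lower by a log2 change of -1.65 ± 0.17 with WT-Tag and -2.32 ± 0.17 with K27M (adjusted p = 0.000457 and 1.81e-05). Sp8, a factor of anterior cortex, was lower by -1.52 ± 0.13 with K27M (adjusted p = 4.83e-05). Irx1, an Iroquois factor of caudal diencephalon, midbrain and hindbrain, was the one with the largest rise, by 2.29 ± 0.14 and 2.69 ± 0.14 (adjusted p = 6.58e-06 and 9.52e-07). Among 22 hindbrain and midbrain identity genes 5 were tested, of which 4 were higher with WT-Tag and 3 with K27M, led by Irx2 with 2.92 ± 0.11 and 3.38 ± 0.11 (adjusted p = 1.47e-07 and 2.91e-08). The median log2 change was -0.26 and -0.32 over the other forebrain factors and 1.51 and 1.55 over the hindbrain and midbrain genes. Of 20 forebrain patterning signals 8 were tested and none passed in either genotype by limma, with 0 and 3 at an unadjusted p under 0.05. Of 13 partner cofactors tested 2 passed in each genotype. Lmo1, a LIM-only protein that competes for the Ldb cofactors of Lhx2, was lower by -0.80 ± 0.15 and -0.92 ± 0.15 (adjusted p = 0.017 and 0.00352), and Ldb2 was higher by 0.74 ± 0.11 and 0.43 ± 0.11 (adjusted p = 0.00402 and 0.0333).

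**Figure D2:**
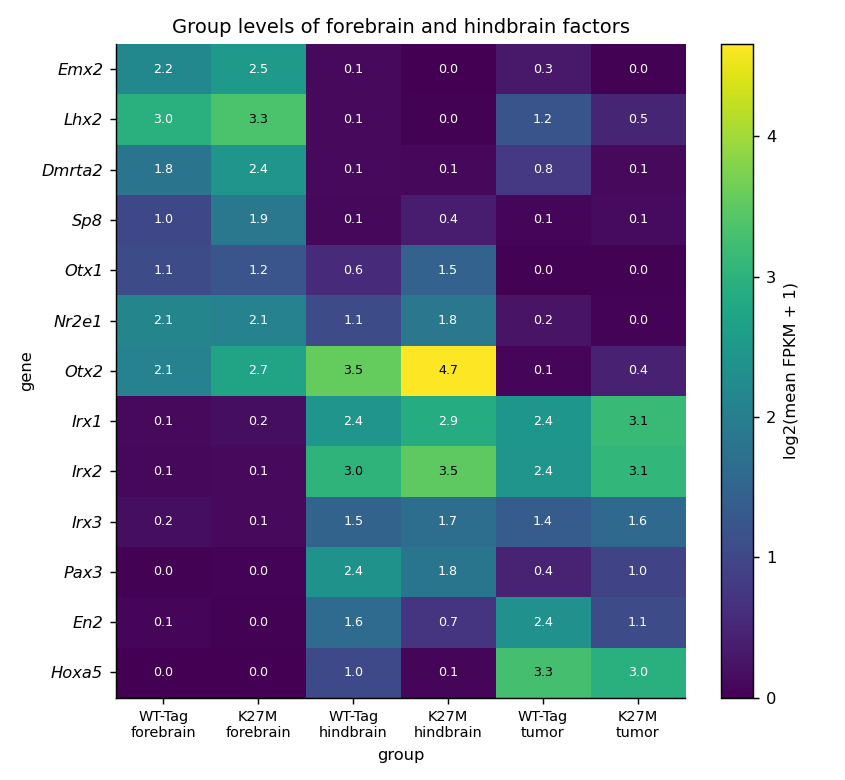
Heat map of log2(mean FPKM + 1), one row per gene and one column per group. Emx2, Lhx2, Dmrta2 and Sp8 are highest in forebrain cultures, Otx2 in hindbrain cultures, and Irx1, Irx2 and Irx3 in hindbrain cultures and tumors.

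The K27M genotype was next compared with WT-Tag within each region, the question the knock-in design poses. In forebrain cultures Emx2 was 1.32 times and Lhx2 1.35 times as high with K27M by mean FPKM, and every K27M value was above every WT-Tag value for both. Otx2 was 1.77 times as high, again without overlap. None of the 5 tested factors passed the test: the log2 changes were 0.32 ± 0.098 for Emx2, 0.37 ± 0.11 for Lhx2 and 0.79 ± 0.36 for Otx2 (limma adjusted p = 0.205, 0.206 and 0.381), and 3 of 5 had an unadjusted p under 0.05. The 3 factors without overlap stand beside 24.9% of all genes without overlap, and 0.356% of genes were called. Otx1 and Nr2e1 changed by 0.15 ± 0.22 and -0.06 ± 0.27 (adjusted p = 0.811 and 0.95). Of the 10 other forebrain factors tested, Sp8 rose by 0.86 ± 0.13 (adjusted p = 0.0156), from 1.02 ± 0.17 to 2.66 ± 0.28 FPKM (SD, n = 3 each), and no other passed. Without experiment 3, where labelled sex and genotype coincide, no gene was called, Sp8 included. That fit also has fewer libraries in each group, so it cannot show whether labelled sex mattered. Astrocyte markers differed here too: 3 of 10 were lower with K27M and none higher, with a summed level of 279.5 to 319 FPKM against 424 to 639.5 with WT-Tag, and their part in these differences was not tested.

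In hindbrain cultures Otx1 was higher with K27M. It rose from 0.479 ± 0.584 to 1.77 ± 0.154 FPKM (SD, n = 3 each), a log2 change of 0.97 ± 0.22 (adjusted p = 0.0178), and was the only one of the 5 tested that passed, where 13.5% of all genes were called. Every K27M value was above the highest WT-Tag value of 1.153. The call was lost when either WT-Tag library 2 or 3 or K27M library 1 or 3 was left out (adjusted p = 0.0791, 0.0706, 0.0685 and 0.0516), without experiment 3 (0.215) and with the 2 groups fitted alone (0.0827). Otx2 was 2.26 times as high with K27M, with a log2 change of 1.18 ± 0.36 (adjusted p = 0.0512). Nr2e1 differed by 0.88 ± 0.27 (adjusted p = 0.0561), and its groups overlapped through WT-Tag library 1. Neither passed, and both did without that library (adjusted p = 0.00996 for Otx2 and 0.00049 for Nr2e1), as did Otx1 with a log2 change of 1.28 (adjusted p = 0.000323). That library held the WT-Tag values nearest to those of K27M, so leaving it out favors a call. With each of the 6 libraries left out in turn, the adjusted p reached 0.177 for Otx2 and 0.18 for Nr2e1.

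Emx2 and Lhx2 had lower values with K27M in hindbrain cultures, at 0.15 and 0.262 times the WT-Tag mean without overlap, and the K27M values were near the detection limit, with 4, 8 and 14 against 0, 1 and 2 estimated fragments for Emx2 and 16, 7 and 20 against 2, 3 and 4 for Lhx2, WT-Tag against K27M. Their log2 changes of -0.09 ± 0.098 and -0.08 ± 0.11 did not pass (adjusted p = 0.544 and 0.644) and turned positive after quantile normalization. Over the 5 factors the values did not overlap for 4, 2 higher and 2 lower, beside 28% of all genes. Astrocyte markers differed between the same libraries: 8 of 10 were lower with K27M, with a summed level of 234 to 279 FPKM against 446 to 659 with WT-Tag, lowest of the WT-Tag cultures in library 1, and all 10 had a mean above 0.1 FPKM. The part of astrocyte content in the Otx and Nr2e1 differences was not tested. Among the partner cofactors Tle4, a Groucho-type corepressor that works with Six3, rose by 0.91 ± 0.10 (adjusted p = 0.000873), Lmo4 rose by 0.41 ± 0.12 (0.0443) and Ldb2 fell by 0.40 on the log2 scale (SE 0.11, adjusted p = 0.035). Of 10 other forebrain factors Irx1 alone passed, at 0.46 ± 0.14 (adjusted p = 0.0494), and of 8 patterning signals Sfrp2, a Wnt antagonist, alone, at 0.88 ± 0.26 (adjusted p = 0.0487). Of the 5 hindbrain and midbrain identity genes tested 3 passed: Egr2, a factor of hindbrain rhombomeres, rose by 1.09 ± 0.27 (adjusted p = 0.025) and Irx2 by 0.48 ± 0.11 (0.0159), and En2, a factor of the midbrain-hindbrain boundary region, fell by 0.90 on the log2 scale (SE 0.19, adjusted p = 0.0124).

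The K27M effect was not shown to differ between regions for any of the 5. The difference of the effects, hindbrain minus forebrain, was -0.41 ± 0.14 for Emx2, -0.46 ± 0.16 for Lhx2, 0.82 ± 0.31 for Otx1, 0.39 ± 0.51 for Otx2 and 0.94 ± 0.39 for Nr2e1, with limma adjusted p-values from 0.558 to 1, and 4 of the 5 had an unadjusted p under 0.05. Only 0.0379% of all genes were called. Without the WT-Tag hindbrain library 1 the difference was 1.12 for Otx1 and 1.33 for Nr2e1 (adjusted p = 0.0195 and 0.0127). Of the 12 libraries left out in turn, only this one gave any member a call.

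**Figure D3:**
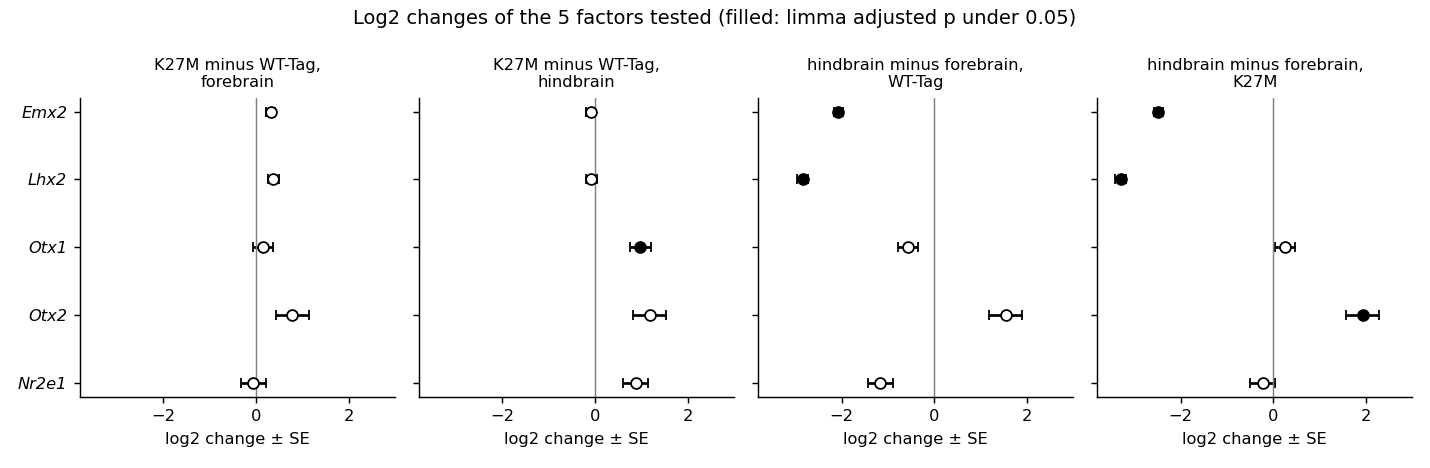
Log2 change with its SE (horizontal axis) of the 5 factors tested in the 4 neurosphere comparisons; filled points passed at a limma adjusted p under 0.05. Emx2 and Lhx2 lie far to the left in both regional comparisons, Otx2 to the right, and Otx1 alone is filled for K27M against WT-Tag in hindbrain.

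In the brainstem tumors all 8 factors were low, and none reached 1 FPKM in 9 libraries, so none entered the test at that filter, where 0.0846% of genes were called. In a fit of all 30912 genes above 0 in at least 1 tumor, Emx2 and Lhx2 were lower in K27M tumors and were 2 of 26 genes called, 0.0841% of those tested. Lhx2 ranged from 0.708 to 2.832 FPKM around a median of 1.227 in WT-Tag tumors, and from 0.016 to 1.893 around 0.228 in K27M tumors. Of 20 K27M tumors 18 lay below the lowest WT-Tag tumor, and tumors 12 (1.146 FPKM) and 23 (1.893 FPKM) lay inside the WT-Tag range. The mean was 3.27 times higher in WT-Tag tumors, and the log2 change was -0.72 ± 0.14 (adjusted p = 0.0271). With genes at 0.1 FPKM or more in 9 tumors, where 0.135% were called, its adjusted p was 0.0168. The call was lost without any one of the WT-Tag tumors 7, 8, 9, 10 or 29 (adjusted p = 0.0627, 0.0726, 0.0508, 0.0832 and 0.0716) and within the tumors labelled female (-0.76, adjusted p = 0.366) or male (-0.60, adjusted p = 0.584). Without tumors 8 and 9 the adjusted p was 0.151.

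Emx2 was at 0 in 13 of 20 K27M tumors and at most 0.083 FPKM in the rest. In the WT-Tag tumors it ranged from 0 in tumor 28 to 0.522 around a median of 0.211. All 20 K27M tumors lay below that median, and 6 of 9 WT-Tag tumors lay above the highest K27M tumor. Estimated fragments reached 91 in WT-Tag tumor 9 and 15 in K27M tumor 5, the highest of each group, and a count of 0 allows up to 0.0692 FPKM in the shallowest K27M tumor. The log2 change was -0.28 ± 0.048 (adjusted p = 0.00552) and passed with each tumor left out in turn (0.000361 to 0.0169). The fit shares its spread between genotypes, but the SD was 0.189 FPKM in WT-Tag and 0.025 in K27M tumors. The SE may therefore be too small, and leaving out tumors cannot show this. It was -0.15 in tumors labelled female (adjusted p = 0.363) and -0.54 in those labelled male (adjusted p = 3.16e-06), and the test of that difference passed (adjusted p = 0.00179). This split was chosen after seeing the data and leans on doubtful labels. Sex-linked transcripts went against the label in WT-Tag tumor 8, labelled female, and in tumor 9, labelled male, which held the most Emx2 fragments. Because the scale adds 1 to low values, a pseudocount of 0.1 gave larger changes, -1.39 for Emx2 and -1.72 for Lhx2. Emx2os, the antisense neighbor of Emx2, was also lower in K27M tumors, at 0 in 11 of 20, with a log2 change of -0.21 ± 0.032 (adjusted p = 0.00142). Its SD differed as well, at 0.121 FPKM in WT-Tag and 0.011 in K27M tumors. Its reads and those of Emx2 may overlap, as counting by strand is not stated.

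The other 6 factors did not pass in tumors. Nr2e1 was at 0 in 13 of 20 K27M tumors with a highest value of 0.332 FPKM, while WT-Tag tumors ran from 0 to 0.567 around 0.04, and its log2 change was -0.19 ± 0.067 (adjusted p = 0.546). Six3 was at 0 in 16 of 20 K27M tumors and reached 0.076 in WT-Tag tumor 11 (-0.02, adjusted p = 0.69). Emx1 reached 0.551 FPKM in a K27M tumor and 0.715 in a WT-Tag tumor, above all neurospheres in its highest tumors (-0.10 ± 0.077, adjusted p = 0.855). Otx1 was at most 0.05 and Fezf2 at most 0.085 FPKM in any tumor (-0.01 each, adjusted p = 0.871 and 0.883). The 8 factors had a median log2 change of -0.06, beside -0.00026 over all genes in the fit with no filter. By limma 4 of the 8, Emx2, Lhx2, Nr2e1 and Six3, had an unadjusted p under 0.05, as had 2074 of all 30912 genes.

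Of the 32 other forebrain patterning factors, Vax2, a ventral eye and forebrain factor, was the 1 gene lower in K27M tumors, at 0.074 to 10.276 FPKM with WT-Tag and 0 to 0.084 with K27M (log2 change -1.29 ± 0.22, adjusted p = 0.00552). Its SD was 3.147 FPKM with WT-Tag and 0.029 with K27M, so the shared spread may give too small an SE here as well. Of 22 hindbrain and midbrain genes En2 alone passed, at -1.35 ± 0.23 (adjusted p = 0.00552). None of the 15 partner cofactors and none of the 20 signals passed by limma, with 1 cofactor and 2 signals at an unadjusted p under 0.05. In bulk tumor RNA, fewer cells of a type and less RNA per cell cannot be told apart. No gene of the 8 cell type marker lists passed between the tumor genotypes by limma, with 0 to 4 per list at an unadjusted p under 0.05. The summed level of 12 neural stem and progenitor markers was 518 to 1286 FPKM (median 669) in WT-Tag and 185 to 1072 (511) in K27M tumors, of 10 neuron markers 24.66 to 418 (178) and 27.02 to 725 (369), and of 10 oligodendrocyte lineage markers 512 to 1348 (748) and 476 to 1643 (1245). All members of these lists had a mean above 0.1 FPKM in both groups, and their part in the Emx2 and Lhx2 differences was not tested. Cortical neuron markers, which could accompany forebrain tissue, summed to 7.39 to 23.9 FPKM in WT-Tag and 6.83 to 32.3 in K27M tumors.

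**Figure D4:**
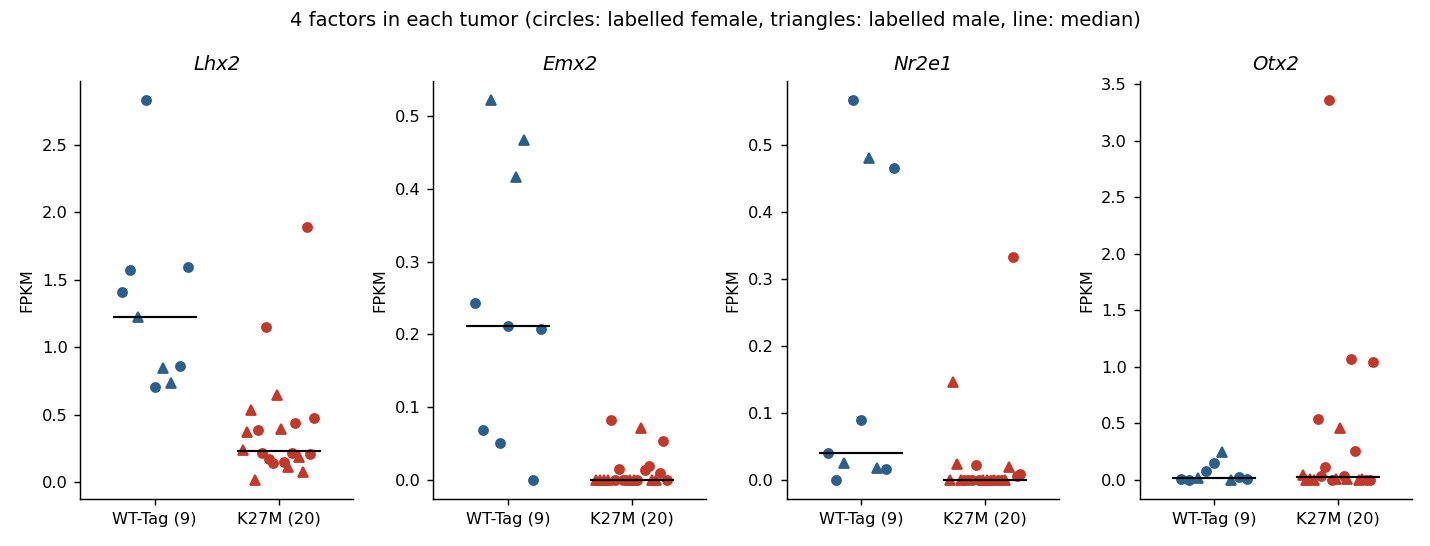
FPKM of 4 factors in each tumor, WT-Tag (9) and K27M (20); circles are tumors labelled female, triangles male, and the line is the median. Of the K27M tumors 18 lie below the lowest WT-Tag tumor for Lhx2, and 13 of 20 lie at 0 for Emx2.

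For Otx2, 6 of 20 K27M tumors lay above the highest WT-Tag tumor, against 1 each for Otx1 and Fezf2 and none for the other 5. It was 3.361 FPKM in tumor 13, 1.067 in tumor 19, 1.047 in tumor 25 and 0.537 in tumor 5, all K27M, while the median was 0.022 in K27M and 0.014 in WT-Tag tumors and the highest WT-Tag value was 0.244. The log2 change of 0.22 ± 0.18 did not pass (adjusted p = 0.855). The same 4 tumors held the 4 highest choroid plexus sums, 2720, 795, 807 and 481 FPKM, mostly from Ttr, the transthyretin gene. The next was WT-Tag tumor 26 with a sum of 128 and Otx2 at 0.244 FPKM, and the other 24 tumors lay between 1.74 and 30.4. None of the 10 markers was at 0 in all tumors of a group. The part of choroid plexus tissue in the Otx2 values was not tested. The other two K27M tumors above the WT-Tag range had low sums: tumor 16 had Otx2 at 0.457 FPKM with a sum of 6.44, and tumor 20 had 0.26 FPKM with 6.88.

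**Figure D5:**
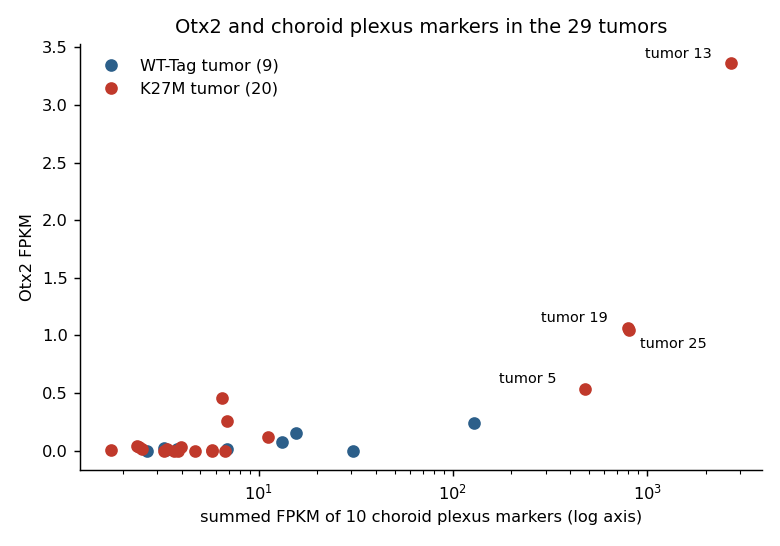
Otx2 FPKM (vertical) against the summed FPKM of 10 choroid plexus markers (horizontal, log axis) in each of the 29 tumors. The 4 labelled K27M tumors, 5, 13, 19 and 25, have both the highest Otx2 values and the highest sums, from 481 to 2720.

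Tumors and cultures were then compared within each genotype. Emx2, Otx1 and Nr2e1 reached 1 FPKM in no tumor and entered this test through the cultures alone, so a count of falls only describes them. All 5 tested factors were lower in tumors than in forebrain cultures of the same genotype, where 60.6% of genes were called with K27M and 49.4% with WT-Tag, with log2 changes from -1.20 (Otx1) to -2.89 (Lhx2) and from -1.04 (Otx1) to -1.90 (Nr2e1). In the same comparisons 10 of 12 neural stem and progenitor markers were lower with K27M and 9 of 12 with WT-Tag, all 10 microglia and macrophage markers were higher in both, and 9 and 10 of 10 neuron markers were higher. The part of these cell types in the changes was not tested. Against hindbrain cultures, where 59.6% and 46.3% were called, Otx1, Otx2 and Nr2e1 were lower in tumors of both genotypes, Otx2 by -4.34 ± 0.29 with K27M and -3.39 ± 0.31 with WT-Tag (adjusted p = 2.44e-15 and 2.99e-11). Lhx2 was higher in WT-Tag tumors than in WT-Tag hindbrain cultures, with 9 of 9 tumors above all 3 cultures and a log2 change of 1.05 ± 0.22 (adjusted p = 0.000173; 0.0519 after quantile normalization). With K27M the Lhx2 change was 0.41 ± 0.20 (adjusted p = 0.0785), and whether the 2 genotypes differ in it was not tested. Emx2 changed by 0.19 ± 0.095 with WT-Tag and 0.001 ± 0.088 with K27M (adjusted p = 0.0998 and 0.991). The Otx1 and Nr2e1 calls with WT-Tag rested on the experiment 1 hindbrain library and were lost without it (adjusted p = 0.15 and 0.0802). These comparisons use the same cultures as those between regions.

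Ordered by mean level, Emx2 and Lhx2 ran from K27M forebrain over WT-Tag forebrain to WT-Tag tumors, with no overlap between those neighbors, and were lowest in K27M hindbrain cultures. Below WT-Tag tumors the neighbors overlapped for Emx2, and for Lhx2 all overlapped except the 2 hindbrain groups. Otx2 ran from K27M hindbrain over WT-Tag hindbrain and K27M forebrain to WT-Tag forebrain cultures without overlap, then K27M and WT-Tag tumors, which overlapped with each other and with WT-Tag forebrain through K27M tumors 13, 19 and 25. Otx1 was highest in K27M hindbrain cultures, narrowly apart from K27M forebrain (lowest 1.593 against highest 1.589 FPKM), its other culture groups overlapped, and both tumor groups lay below all cultures. Nr2e1 overlapped between all neighbors. Six3 was apart only between forebrain and hindbrain cultures. Emx1 was the 1 member with its highest mean in tumors, 0.204 FPKM in WT-Tag and 0.119 in K27M, with all neighbors overlapping. Fezf2 was highest in K27M forebrain cultures, with all neighbors overlapping. Ordering by the median moved Emx2 in K27M tumors below K27M hindbrain cultures and swapped low or overlapping neighbors of Emx1. For Fezf2 it left K27M tumors and both hindbrain groups tied at 0.

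Across the 41 libraries, likeness was measured among 16803 genes by Pearson correlation of log2(FPKM + 1). Emx2os was among the 3 genes most like Emx2 (0.978), and Emx2 (0.911) and Emx2os (0.908) were among the 3 most like Lhx2. The forebrain cultures are the highest for these genes, so few libraries weigh most in these values. Nearly all other libraries are near 0 for Emx2 and Emx2os. Lhx2 lay between 0.708 and 2.832 FPKM in WT-Tag tumors, so tumors enter its values as well. Otx1 was most like Egr4 (0.966), Znrf2 (0.947) and Nr2e1 (0.944), Nr2e1 most like Otx1 (0.944), F2rl1 (0.94) and Car3 (0.938), and Otx2 most like Six5 (0.945), Actc1 (0.941) and Jub (0.929). Here the contrast between cultures and tumors, in which 46.3% to 60.6% of genes were called, enters every value.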

How the data were processed

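RNA-seq was run on 29 tumors and 12 neurosphere cultures. Per the labels, ERCC controls were added and libraries made with a stranded total RNA kit. The authors deposited 1 table of FPKM values for all 41 libraries. The submitters' processing notes name CASAVA, TopHat2, STAR and mm9, with no role for each; no source used here gives the counting tool, the annotation or the use of strand. FPKM is not a count, so values were tested as log2(FPKM + 1) with limma 3.58.1 (trend) in R 4.3.3, with Benjamini-Hochberg adjustment over all genes tested and a threshold of 0.05. Tumors were fitted alone (FPKM of 1 or more in 9 libraries), neurospheres as 4 groups (in 3 libraries), and tumors with cultures as 6 groups (in 3 libraries). As no member passed the tumor filter, members are given from the fit with no filter, and its further alternatives were added after seeing the data. A gene called higher or lower passed that threshold.

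Members and gene lists were chosen with earlier results of these data known. From each list, the text names up to 4 called genes with the largest change, and it names the 3 genes most correlated with each tested member; Irx2, Hoxa5 and genes next to members were added as checks. Some genes that this rule names are not reported here. Estimated fragments come from the spacing of low FPKM values (3286 genes, 73.7% of values at 1 step), and limits for a value of 0 are the FPKM of 3 fragments and cover counting error only.

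Experiment ids were checked as pairs by the correlation of deviations from group means. K27M and WT-Tag hindbrain cultures of 1 experiment gave 0.412, 0.152 and 0.438. Forebrain and hindbrain WT-Tag cultures of 1 culture letter gave 0.668, 0.712 and 0.165. Both were taken as paired from the data. The second pairing is less clear, as WT-Tag forebrain 3 and WT-Tag hindbrain 2, of different letters, gave 0.504. Forebrain genotypes (0.443, -0.234, 0.352) and K27M regions (0.216, -0.0471, -0.0405) were not taken as paired. The main fits used no pairing, and experiment id and culture letter entered only alternative fits, as replicate blocks. With culture letter as block, the WT-Tag regional limma adjusted p was 0.000413 for Emx2 and 0.000147 for Lhx2. Figures and summaries used Python 3.11.15.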

Additional observations from a re-analysis of the deposited data

Results flagged for a closer look

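Among the 9 WT-Tag tumors, tumor 10 had Lhx2 at 2.832 FPKM, far above the other 8 by Dixon's test. By the same test Six3 stood apart in tumor 11, at 0.076 FPKM, and Vax2 in 1 tumor, at 10.276 FPKM. For normally distributed values chance flags about 1 in 20 such groups. These FPKM values are skewed and some are at 0, so the rate here is not known.

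The K27M effect on Emx2 in tumors differed by labelled sex, a comparison chosen after seeing the data. The log2 change was -0.15 in tumors labelled female and -0.54 in those labelled male, a difference of 0.3955 (limma interaction, adjusted p = 0.00179, 3 genes called). Mean Emx2 in WT-Tag tumors was 0.130 FPKM in 6 labelled female and 0.468 in 3 labelled male. Without WT-Tag tumors 8 and 9, whose sex-linked transcripts go against their labels, the difference was 0.354 (adjusted p = 0.0316). Tumor 9 is labelled male, so that fit kept few WT-Tag tumors labelled male. The unequal spread of Emx2 in the genotypes limits both fits. For Lhx2 the difference was -0.16 (adjusted p = 0.924).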

How the results depend on the processing

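Fits rest on 3 libraries a group in neurospheres and on few fragments for most members, which limits what can be seen below about 0.1 FPKM. In tumors 13 genes were called, against 26 with no filter and 28 at a filter of 0.1 FPKM. The number was 0 within tumors labelled female and 8 without tumors 8 and 9 (8 to 18 leaving out each tumor). Members called were 2 with no filter and 1 at 0.1, where Emx2 did not reach the filter. For forebrain cultures 47 genes were called, 105 after quantile normalization, 0 without experiment 3 and 80 with the 2 groups alone (20 to 37 leaving out each library). For hindbrain cultures 1787 genes were called, 1045 with no filter, 97 without experiment 3 and 286 with the 2 groups alone (554 to 4212); members called were 1, 0 without experiment 3 and 0 with the 2 groups alone (0 to 3). The difference of effects called 5 genes, 0 with a pseudocount of 0.1, 8 with no filter, 8 at 0.1, 2 after quantile normalization, 0 with either replicate block and 0 without experiment 3 (0 to 295, members 0 to 2). Between regions, WT-Tag called 240 genes, 68 without experiment 3 and 90 alone (122 to 580, members 2 to 4), and K27M 1044, 315 without experiment 3 (493 to 756). WT-Tag tumors against hindbrain cultures called 4 members, 2 with these groups alone (2 to 4). With these groups alone, Otx1 and Nr2e1 did not reach the filter and were not tested. The cause of the other shifts was not tested.

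In the tumor fit with no filter, Emx2 lost its call in labelled females (-0.15) and ranged from -0.32 to -0.24 leaving out each tumor; Lhx2 lost its call in labelled females (-0.76), labelled males (-0.60) and without tumors 8 and 9 (-0.70), and ranged from -0.78 to -0.63. Changes near 0 reversed: Nr2e1 in forebrain cultures without WT-Tag library 3 (0.016; -0.14 to 0.016 leaving out each library), Emx2 and Lhx2 in hindbrain cultures after quantile normalization (0.0021 and 0.034), the Otx2 difference of effects without experiment 3 (-0.24), and, for K27M tumors against hindbrain cultures, Emx2 with a pseudocount of 0.1 (-0.0069), after quantile normalization (-0.30, adjusted p = 0.00129) and without K27M library 1 (-0.0073; -0.0073 to 0.011 leaving out each library), and Lhx2 after quantile normalization (-0.10). For WT-Tag tumors against hindbrain cultures Emx2 reversed after quantile normalization (-0.28, adjusted p = 0.00589). With experiment id as replicate block the hindbrain Otx1 change kept its call (adjusted p = 0.0122), and the blocks changed no member's call.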
